A study of Mus musculus with 106 samples.

Results

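The nuclear genes of the respiratory chain and ATP synthase were read at their promoters in lists of peaks for histone H3 lysine 27 acetylation (H3K27ac), a mark of active promoters and enhancers, and histone H3 lysine 4 trimethylation (H3K4me3), a mark of promoters. Members were the protein-coding nuclear genes whose symbol starts with Nduf, Sdh, Uqcr, Cox4, Cox5, Cox6, Cox7, Cox8 or Atp5, plus Cyc1 and Cycs. This gave 100 of 21938 protein-coding genes of GENCODE release M21, under 99 symbols, because Atp5o has 2 adjacent gene identifiers that can draw on the same reads. By symbol, 38 members belong to complex I, 4 to complex II, 9 to complex III, 18 to complex IV and 18 to ATP synthase, 1 is cytochrome c, and 12 are assembly factors that help to build the complexes. Ndufa4 was kept with complex I by its symbol, although its protein is now counted with complex IV.

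The study profiled chromatin from wild-type C57BL/6J mice, aged 12 to 14 weeks when assigned, in which diabetes was induced with streptozotocin (STZ), a toxin that kills insulin-producing beta cells, and from control mice. Hematopoietic stem cells (HSC), a lineage-depleted bone marrow fraction that also holds progenitors, and bone marrow–derived macrophages (BMDM) grown for 7 days with L929-conditioned medium in 5 mmol/L glucose were used. Mice received STZ at 42 to 45 mg/kg on each of 5 days, were taken 6 weeks later, and counted as diabetic above 13.9 mmol/L blood glucose. BMDM were left unstimulated or given LPS (100 ng/mL) plus IFN-γ (10 ng/mL) for 16 hours, a proinflammatory stimulus. The dose and time are those of the general culture methods, and the ChIP-seq methods give no time of their own. Each mark had 35 libraries in 6 groups of 6, except unstimulated diabetic BMDM with 5. For that group the samples include no replicate 3 of either mark, only its input. The labels number the replicates without saying which animal each came from, so p-values measure the spread between these libraries.

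Oxidative phosphorylation takes place in the inner mitochondrial membrane. Complexes I and II pass electrons from NADH and succinate to ubiquinone, complex III passes them to cytochrome c, and complex IV passes them to oxygen. Complexes I, III and IV pump protons, and ATP synthase uses the returning protons to make ATP. Complex II is also succinate dehydrogenase of the tricarboxylic acid cycle and is encoded wholly in the nucleus, whereas the other complexes also have subunits encoded by mitochondrial DNA, which are not members here. In macrophages, LPS plus IFN-γ is known to shift energy metabolism from oxidative phosphorylation toward glycolysis.

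In each library a gene was given the highest −log10 p of any peak that overlapped 1000 bp to either side of any of its start sites. Genes were then ranked within that library, and the rank was expressed as a percentile from 0 to 100 among all 21938 genes, with genes without a promoter peak sharing the lowest rank. A percentile is thus a place among the genes of 1 library and not an amount of the mark. A promoter was also counted as held when its peak was among the 10000 strongest of the library. Groups were compared with limma on percentiles over 14838 genes for H3K27ac and 15705 for H3K4me3 with a promoter peak in at least 18 of 35 libraries, with Benjamini-Hochberg adjustment over all of them. Of the members, 95 and 96 passed that filter.

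The lists held 51162 to 176559 peaks for H3K27ac and 13730 to 277213 for H3K4me3. H3K4me3 lists of HSC were shorter (median 59726.5 peaks) than those of unstimulated BMDM (131406), and the list of diabetic HSC replicate 6 held a promoter peak at only 46 members. For H3K27ac, the summary percentile of 9 macrophage marker genes ran from 25.9 to 39.1 in HSC and from 42.5 to 65.2 in unstimulated BMDM. Adgre1, the gene of the F4/80 antigen, was low in both (20.8 and 29.2), and Csf1r, the receptor for macrophage colony-stimulating factor, was at 38.9 and 56.3. Of these marker genes Lyz2 was lower in BMDM (25.1 and 21.4), and Msr1 was almost level (16.2 and 16.3). For 9 stem and progenitor genes the ranges were 52.8 to 59.2 and 40.7 to 54.3. Procr (47.9 and 63.0) and Meis1 (53.6 and 58.9) were higher in BMDM, and the rest of that list was lower. H3K4me3 did not separate the cells by the stem and progenitor genes, with means of 70.5 in HSC and 71.1 in unstimulated BMDM. Its means for the macrophage genes were 34.8 and 40.2. For H3K27ac, 3 of 12 control BMDM libraries (LPS+IFN-γ replicate 5 and unstimulated replicates 5 and 6) lay nearer to the other stimulation label than to their own. In a further 4 H3K4me3 libraries (LPS+IFN-γ diabetic replicates 1 and 2, LPS+IFN-γ control replicate 6 and unstimulated control replicate 6) the pileup values were not whole numbers, so their scaling was unclear. All libraries stayed in their labelled groups.

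Most members had strong H3K27ac promoters. The median member lay at percentile 77.1 for H3K27ac (interquartile range 63.7 to 86.0), against 49.8 for all genes, and 89 of 100 members had a median above percentile 50. For H3K4me3 the median member lay at 65.5 (51.5 to 77.6), against 51.8. A promoter peak was present in all 35 libraries for 88 members under H3K27ac and for 41 under H3K4me3. Held promoters were fewer: 46 members, against 19.7% of all genes, were held in all 35 H3K27ac libraries, and 7 members, against 3.80%, in all 35 H3K4me3 libraries. Other housekeeping sets gave like levels. The 78 mitochondrial ribosomal protein genes had medians of 73.9 and 63.6, and the 91 cytosolic ribosomal protein genes 83.0 and 71.3. As medians of per-gene medians, members' H3K27ac promoter peaks were 960.5 bp wide, against 850 bp for all genes. Their H3K4me3 peaks were narrower (651.5 against 756 bp). Within libraries the H3K27ac gap was small, with medians over libraries of 1013 bp for members and 995 bp for all genes. By group, members were wider on average in HSC (1134 against 1045 bp in control and 1069 against 1010 in diabetic). In unstimulated BMDM they were narrower (917 against 947 and 813.6 against 857.8).

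**Figure D1:**
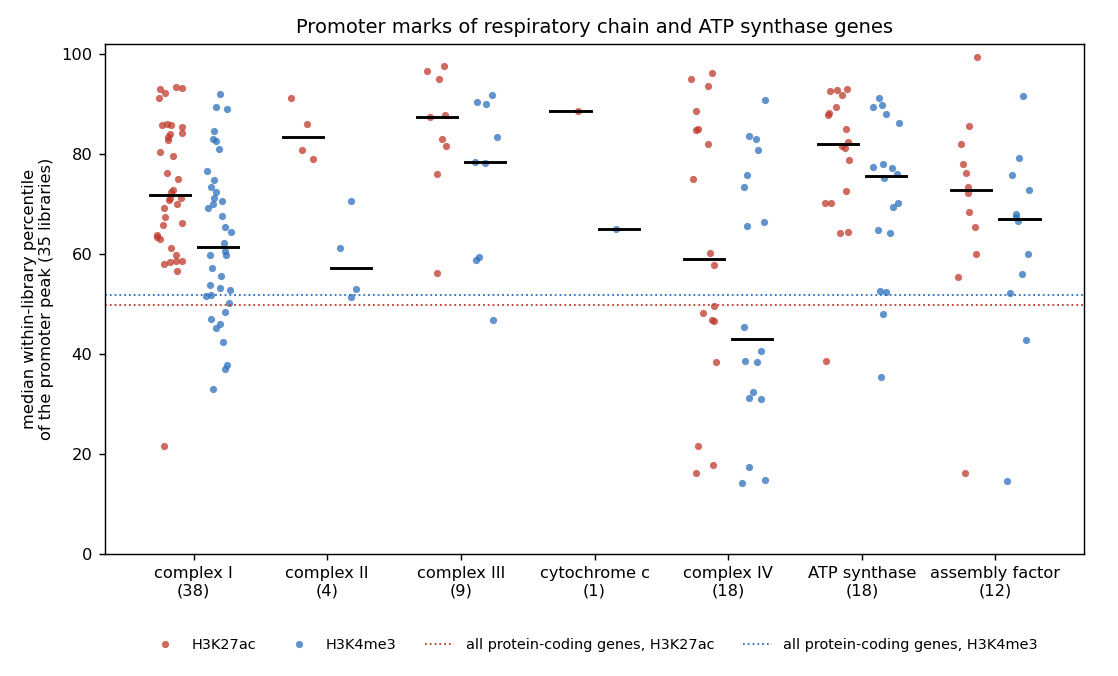
Median percentile over 35 libraries (y axis) of each member (points), by complex (x axis, number of genes in brackets) and mark (colour); black bars are medians of a complex and dotted lines medians of all genes. Among the complexes of several genes, complex III lies highest (87.4 for H3K27ac and 78.4 for H3K4me3) and complex IV is split between strong and weak promoters (58.9 and 42.9).

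By complex, the H3K27ac median was 71.8 for complex I, 83.4 for complex II, 87.4 for complex III, 88.7 for cytochrome c (1 gene), 58.9 for complex IV, 82.0 for ATP synthase and 72.8 for the assembly factors. The H3K4me3 medians in the same order were 61.4, 57.1, 78.4, 65.0, 42.9, 75.6 and 67.0. Complex II stood among the higher complexes for H3K27ac and below all but complex IV for H3K4me3. Its 4 promoters were held in 100% of gene and library pairs for H3K27ac and in 47.1% for H3K4me3.

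The catalytic and core subunits ran through most of this range. Among the electron-carrying subunits of complex I, Ndufs1 had median percentiles of 84.2 for H3K27ac and 89.5 for H3K4me3, and Ndufv1, which binds NADH, had 79.6 and 65.3. In complex II, the flavoprotein Sdha had 79.1 and 51.5 and the iron-sulfur subunit Sdhb had 91.2 and 70.7. In complex III, the Rieske protein Uqcrfs1 was among the strongest promoters for both marks, at 96.6 and 89.9. Its group means for H3K27ac ran only from 94.4 ± 6.87 (SD, n = 6; LPS+IFN-γ diabetic BMDM) to 97.8 ± 0.948 (n = 6; unstimulated control BMDM). The other core subunits of complex III, Cyc1 (cytochrome c1) and Uqcrc1, had 83.0 and 83.4, and 81.6 and 78.1. Cycs, the mobile carrier between complexes III and IV, had 88.7 and 65.0. In complex IV, Cox4i1 had 94.9 and 90.8, Cox5a 93.7 and 83.0, and Cox5b 84.9 and 75.9. In ATP synthase, the α subunit gene Atp5a1 had 88.1 and 91.2 and the β subunit gene Atp5b 72.6 and 70.2. The Atp5a1 window is shared with Haus1 on the opposite strand, whereas Atp5b has its own.

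The highest H3K27ac medians belonged to Sdhaf2 (99.5), which adds the flavin to Sdha, and to Uqcrq (97.6), Uqcrfs1 (96.6), Cox8a (96.2) and Uqcrh (95.0). For H3K4me3 they belonged to Ndufv2 (92.0), Uqcrq (91.7), Ndufaf6 (91.7), Atp5a1 (91.2) and Cox4i1 (90.8). Several of these windows are shared: Sdhaf2 with Cpsf7, Uqcrq with Gdf9, Uqcrh with Lrrc41, Atp5a1 with Haus1 and Cox4i1 with Emc8. A peak in a shared window cannot be assigned to either gene.

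For H3K27ac the weak promoters were mainly those of isoforms known from muscle, testis or other restricted tissues. Cox7b2 had no promoter peak in any of 35 libraries of either mark. Cox8b, the heart and muscle form of subunit 8, had a promoter peak in 17 H3K27ac and 11 H3K4me3 libraries, and Cox8c, a testis form, in 10 and 24. Ndufa4l2, a relative of Ndufa4 that hypoxia is known to induce, had one in 17 and 27 libraries. Cox8b, Cox8c and Cox7b2 were held in 0 of 35 libraries of both marks. Cox4i2, Cox6a2, Cox6b2 and Cox7a1 had a peak in 33 or 34 H3K27ac libraries but medians of only 46.7, 48.3, 46.5 and 49.6. For H3K4me3 low medians also belonged to widely used subunits, such as Cox7a2 (38.5) and Cox6b1 (38.6), and 77 of 100 members were above percentile 50.

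**Figure D2:**
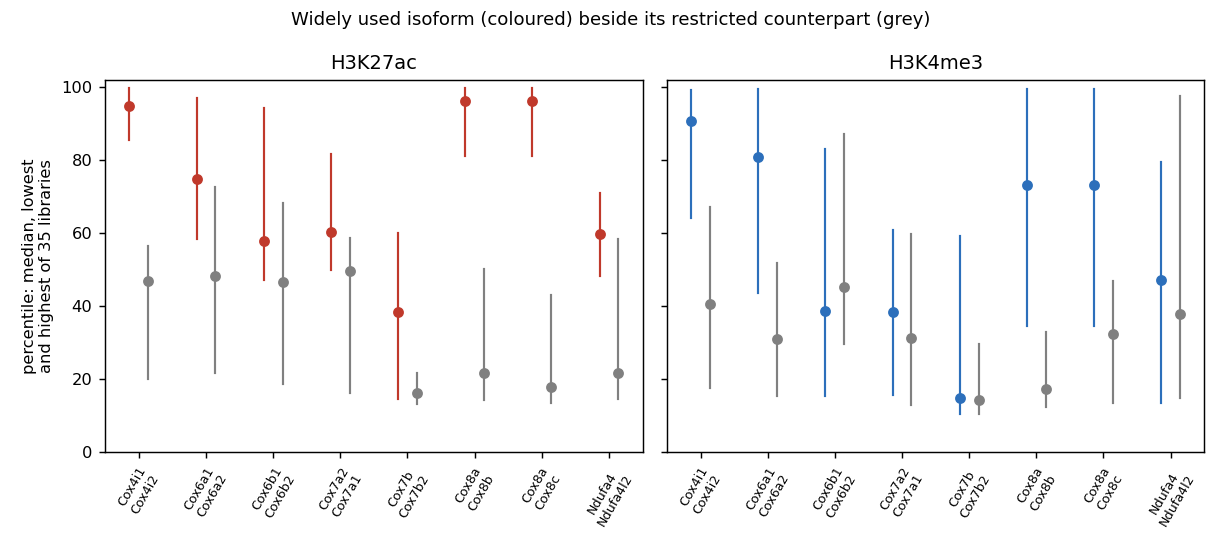
Percentile (y axis; dot median, line lowest to highest of 35 libraries) of each widely used isoform (coloured) beside its restricted counterpart (grey), for H3K27ac (left) and H3K4me3 (right). For H3K27ac the coloured dot lies above the grey one in all pairs drawn, and for H3K4me3 Cox6b1 lies below Cox6b2 (38.6 and 45.4) and Cox7b almost level with Cox7b2 (14.7 and 14.3).

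Each restricted isoform was set beside its widely used partner in the same library. For H3K27ac, Cox4i1 ranked above Cox4i2, Cox6a1 above Cox6a2, Cox6b1 above Cox6b2, Cox8a above Cox8b and Cox8c, and Ndufa4 above Ndufa4l2 in 35 of 35 libraries. Cox7a2 ranked above Cox7a1 in 32, and Cox7b above Cox7b2 in 21. The median gap ran from 10.9 percentile points for Cox6b1 to 76.9 for Cox8a over Cox8c. For H3K4me3 the order was kept in 35 libraries by Cox4i1 and by Cox8a over Cox8b, in 34 by Cox6a1 and by Cox8a over Cox8c, in 22 by both Cox7a2 and Ndufa4, and in 3 by Cox7b. In the other libraries of either mark Cox7b tied with Cox7b2, as neither had a promoter peak, and the lowest difference was 0. Cox6b1 ranked above Cox6b2 in only 9 of 35 H3K4me3 libraries, with a median difference of −5.36.

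Cox7b, Sdhaf1 and 1 of the 2 Atp5o identifiers were weak without being restricted isoforms. That identifier (ENSMUSG00000116933.1) had medians of 38.6 and 35.4, and for H3K4me3 the complex I subunits Ndufa7 and Ndufa9 were also low, at 33.0 and 36.9. Cox7b, the X-linked and widely used form of subunit 7b, had a promoter peak in 21 H3K27ac and 3 H3K4me3 libraries and was held in none, and the nearest of the 10000 strongest H3K27ac peaks lay 86215 bp from its start site at the median. By group its mean H3K27ac percentile ran from 24.5 ± 9.20 (n = 5; unstimulated diabetic BMDM) to 46.5 ± 4.28 (n = 6; control HSC). The other X-linked members, Ndufa1 and Ndufb11, had H3K27ac medians of 58.3 and 63.4. Near-identical copies of a gene can draw reads away from it, and this was not examined. Sdhaf1, an assembly factor for the iron-sulfur subunit Sdhb, had a promoter peak in 4 and 1 libraries. Its nearest peak lay 1397 bp (H3K27ac) and 1448 bp (H3K4me3) from a start site at the median, just past the window, so that peak was usually not counted.

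Promoter sequences of Cox8a, Cox8b and Cox7b show a strong and 2 weak promoters of complex IV side by side. They are from RefSeq on GRCm38.p6, 5′ to 3′ on the gene's strand, and end at the base before the start site: Cox8a at chr19:7217617-7217866 (minus strand), Cox8b at chr7:140900447-140900696 (minus) and Cox7b at chrX:106015450-106015699 (plus). Over the window of 300 bases, 250 before and 50 after the start, they held 19, 2 and 5 CpG dinucleotides; vertebrate promoters rich in CpG are known to be active in many tissues.
Cox8a: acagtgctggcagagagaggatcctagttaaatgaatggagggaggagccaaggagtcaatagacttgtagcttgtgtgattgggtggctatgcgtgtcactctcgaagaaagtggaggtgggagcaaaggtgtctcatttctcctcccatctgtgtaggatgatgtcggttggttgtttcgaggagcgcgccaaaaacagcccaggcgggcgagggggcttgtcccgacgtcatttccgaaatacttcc
Cox8b: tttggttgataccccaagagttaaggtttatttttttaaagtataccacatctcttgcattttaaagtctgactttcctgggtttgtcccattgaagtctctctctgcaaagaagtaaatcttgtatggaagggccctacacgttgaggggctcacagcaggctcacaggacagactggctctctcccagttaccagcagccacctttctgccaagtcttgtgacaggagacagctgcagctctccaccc
Cox7b: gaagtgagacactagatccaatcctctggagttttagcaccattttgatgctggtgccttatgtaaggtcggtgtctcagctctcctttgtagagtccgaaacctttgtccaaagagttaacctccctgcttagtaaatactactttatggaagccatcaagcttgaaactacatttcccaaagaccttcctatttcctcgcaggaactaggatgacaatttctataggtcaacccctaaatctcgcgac
Across the 81 members with a RefSeq window, the number of CpGs and the median percentile had a Pearson r of 0.463 for H3K27ac (Spearman rho 0.365) and 0.473 for H3K4me3 (0.397). These are descriptions across genes, which share libraries and base composition and are not independent.

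The members ranked higher for H3K27ac than for H3K4me3. Over the 94 members with promoter peaks in at least 18 libraries of both marks, the median difference between the percentiles (H3K27ac minus H3K4me3) was 11.1 points. It was positive for 82 of them (87.2%) and over 10 points for 51 (54.3%). Over all 14348 such genes the median was 1.73, with 55.0% positive and 27.2% over 10 points. The lean toward H3K27ac was not particular to these genes: the mitochondrial ribosomal protein genes had a median of 10.2 and the cytosolic ones 12.2. It was largest in HSC (16.2) and smaller in unstimulated (8.24) and stimulated BMDM (8.22). The same order of HSC over BMDM was seen for mitochondrial (12.8, 6.31 and 6.62) and cytosolic ribosomal protein genes (15.8, 10.5 and 8.43). All genes were at 2.79, 1.07 and 0.605. The part of the shorter H3K4me3 lists of HSC in this was not tested.

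**Figure D3:**
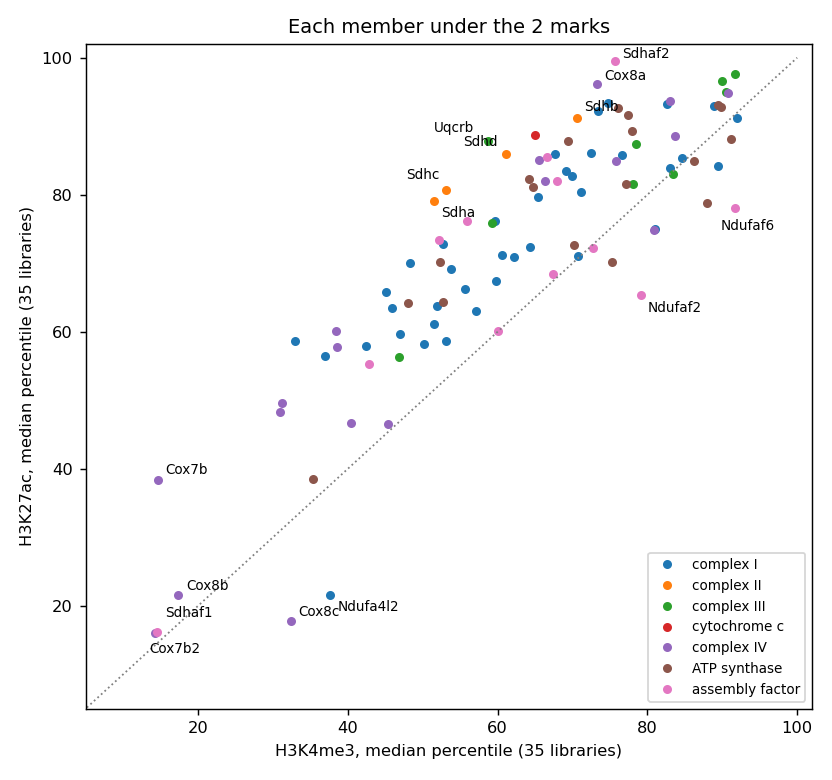
Each point is a member, placed by its median percentile over 35 libraries for H3K4me3 (x axis) and H3K27ac (y axis) and coloured by complex; the dotted line marks equal percentiles. Most members lie above the line, complex II well above it, and Ndufaf2 and Ndufaf6 below it.

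All 4 subunits of complex II leaned strongly to H3K27ac: Sdhc by 27.7 points, Sdha by 27.6, Sdhd by 24.9 and Sdhb by 20.5. The largest lean was that of Uqcrb, the ubiquinone-binding protein of complex III, at 29.1. Among the same 94 members, 2 leaned by more than 10 points to H3K4me3, the complex I assembly factors Ndufaf2 (−13.8) and Ndufaf6 (−13.6).

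Many members share their promoter window with another gene. A start site of another gene lay close enough for the windows to be shared for 40 of 100 members, 37 of them on the opposite strand, against 14.6% and 12.3% of all genes; for mitochondrial ribosomal protein genes the share was 43.6%. Partners included Rps28 (with Ndufa7), Timm8b (with Sdhd), Gabpa (with Atp5j) and the mitochondrial ribosomal protein genes Mrpl36 (with Ndufs6) and Mrpl47 (with Ndufb5). Over all genes, a shared window went with a higher H3K27ac percentile (74.8 against 44.0), and among members the medians were close (79.0 shared and 76.2 own).

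The promoter windows were also read for motifs of factors known to act at genes for mitochondrial proteins: GCGCA, any base and GCGC for NRF1, CCGGAAG for ETS factors such as GABPA, AANATGGC for YY1, AAGGTCA for estrogen-related receptors, TGACGTCA for CREB and GGGCGG for SP1, on both strands. The windows of 300 bases were found for 81 of 99 member symbols (81.8%). The NRF1 motif was in 25.9% of member promoters, against 7.39% of all 16855 promoters and 18.8% of those of mitochondrial ribosomal protein genes. For the ETS motif the shares were 25.9%, 13.2% and 37.7%, and for YY1 24.7%, 7.56% and 30.4%. The estrogen-related receptor motif was in 9.88% against 4.59% and the CREB motif in 6.17% against 2.63%. The GC box was no more frequent in members (49.4%) than in all promoters (50.7%). At least 1 of the NRF1, ETS and YY1 motifs was in 64.2% of member promoters against 24.4%. Member promoters were also richer in GC (58.7% against 56.7%) and CpG (medians of 20 and 14), and the NRF1 motif itself holds CpGs. The 21 members with an NRF1 motif had a median H3K27ac percentile of 79.1, and the 60 without one 75.5. With and without an ETS motif the medians were 81.9 and 73.0, with and without a YY1 motif 71.1 and 79.1, and with and without a GC box 75.5 and 76.0. A match says only that the letters occur.

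Sequences of Ndufb4, Sdhd and Cox7c, 3 members whose percentile differed between groups below, are printed as the longest stretch before the start site that is free of annotated exons, with NRF1, ETS and YY1 matches in capitals. The Ndufb4 stretch (chr16:37654454-37654618, minus strand), which ends 85 bases before the start site, holds an NRF1 match, 1 of 3 in its window. Sdhd (chr9:50603850-50603909, minus) holds an ETS match read on the other strand. The Cox7c stretch (chr13:86046905-86047045, minus), which ends 109 bases before the start site, holds none of the NRF1, ETS and YY1 motifs.
Ndufb4: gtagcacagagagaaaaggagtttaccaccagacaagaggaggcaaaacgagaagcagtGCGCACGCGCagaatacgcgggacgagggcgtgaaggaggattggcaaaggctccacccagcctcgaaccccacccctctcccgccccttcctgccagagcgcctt
Sdhd: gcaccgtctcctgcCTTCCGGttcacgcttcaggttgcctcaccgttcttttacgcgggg
Cox7c: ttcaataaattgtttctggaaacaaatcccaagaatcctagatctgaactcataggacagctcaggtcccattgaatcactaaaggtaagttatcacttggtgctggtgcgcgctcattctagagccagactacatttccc

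The first comparison asked how the members differ between HSC and the macrophages grown from bone marrow. Unstimulated BMDM held fewer member promoters than HSC for H3K27ac. HSC libraries held 81 to 89 of 100 members among their 10000 strongest peaks (12 libraries), and unstimulated BMDM 71 to 79 (11 libraries), so the groups did not overlap. Mitochondrial ribosomal protein genes (68 to 74 of 78, against 58 to 65) moved the same way, and for all genes the shares were 39.6% to 44.8% and 36.5% to 42.7%. The LPS+IFN-γ BMDM ran from 65 to 88. For H3K4me3 the counts overlapped, at 38 to 67 in HSC and 50 to 73 in unstimulated BMDM.

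**Figure D4:**
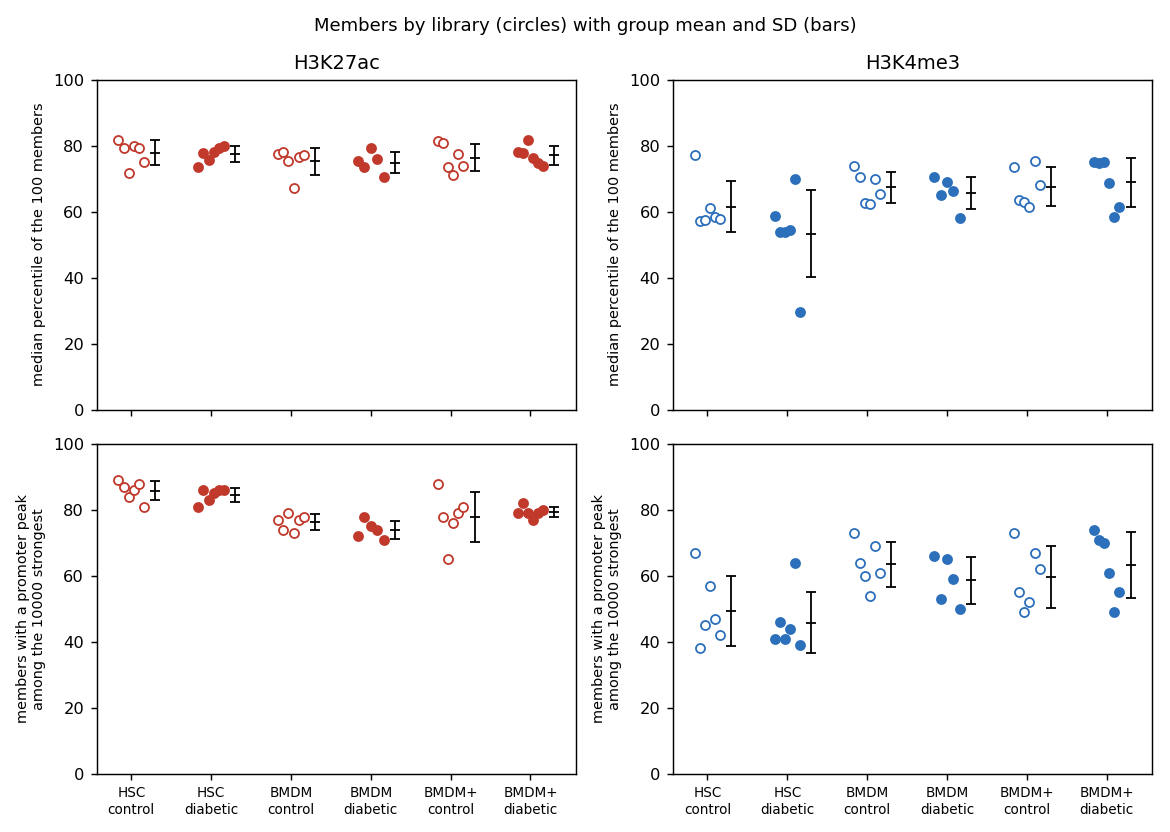
Median percentile of the 100 members (top) and number held among the 10000 strongest peaks (bottom) in each library (circles, filled for diabetic) with group mean and SD (bars); BMDM+ is LPS+IFN-γ. The H3K27ac counts of HSC (81 to 89) lie above those of unstimulated BMDM (71 to 79), and the H3K4me3 values of HSC spread widely.

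Single members that differed were few. For H3K27ac in control mice, 4 of 95 members were called (limma, adjusted p under 0.05), all lower in BMDM, against 16.7% of all genes tested (9.05% higher and 7.68% lower). The share of members was thus below the background. The median difference (BMDM minus HSC) was −2.70 points over members and −0.610 over all genes, and by complex it was −3.03 for complex I, −4.83 for complex IV, −2.64 for ATP synthase, 1.52 for complex II and 0.511 for complex III. In a mixed population, fewer cells of a type with the mark and less of the mark per cell cannot be told apart. The summary percentile of 5 erythroid genes was higher in HSC (59.7 to 76.3) than in unstimulated BMDM (38.8 to 48.9), with 4 and 2 of the 5 above percentile 50 and Gata1 at 44.8 and 17.7. Lineage depletion had targeted Ter119, an erythroid surface antigen. The part of erythroid cells in these differences was not tested.

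Cox7c, a small subunit of complex IV, separated the groups. Its H3K27ac percentile had a lowest, median and highest value of 85.9, 89.3 and 94.8 in control HSC and of 73.9, 76.3 and 79.6 in unstimulated control BMDM. No BMDM library reached the lowest HSC library, and the difference was −13.7 (SE 3.69; limma adjusted p = 0.00671). The call was kept when any 1 of the 12 libraries was left out (adjusted p up to 0.0209). In diabetic mice the means were 84.5 ± 7.08 (n = 6) in HSC and 87.4 ± 2.65 (n = 5) in BMDM. The difference between the cell states differed between control and diabetic mice by an unadjusted p of 0.00297 but not after adjustment (adjusted p = 1.0).

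The other 3 called members overlapped between the groups. Cyc1 was at 88.4 ± 5.18 in HSC and 75.4 ± 9.80 in BMDM (difference −13.0; limma adjusted p = 0.0228; n = 6 each). The X-linked complex I subunit Ndufb11 was at 70.4 ± 6.54 and 59.4 ± 6.59 (−10.98; limma adjusted p = 0.0461). Cox6b2, the testis form of subunit 6b, was at 57.4 ± 6.87 and 41.4 ± 12.4 (−16.0; limma adjusted p = 0.0142), and without the 3 BMDM libraries nearer to the other label its difference was −12.2 (limma adjusted p = 0.0946). Leaving out 1 library removed the call of Cyc1 in 5, Ndufb11 in 8 and Cox6b2 in 2 of 12 cases. In diabetic mice their differences were −8.59, −8.11 and −9.62, the same sign without a call.

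In diabetic mice, 6 of 95 members were called for H3K27ac, 5 lower and 1 higher in BMDM, against 17.1% of all genes (9.39% higher and 7.75% lower). The median difference was −2.02 over members and −0.522 over all genes. By complex it was −2.18 for complex I, −2.50 for complex IV and −1.55 for ATP synthase. Complexes II (−6.68) and III (−0.591) had the other sign than in control mice. Ndufb4, an accessory subunit of complex I, had a lowest, median and highest percentile of 78.1, 89.7 and 94.6 in HSC, and the 5 BMDM libraries were at 66.8, 66.3, 76.2, 74.4 and 81.5. Only the highest BMDM library reached into the HSC range, and the difference was −15.4 (limma adjusted p = 0.00500). In control mice the difference was −9.88 (limma adjusted p = 0.0673). Sdhaf4, an assembly factor for complex II, was at 88.4 ± 5.77 in HSC and 71.6 ± 6.398 in BMDM (−16.8; limma adjusted p = 0.00627), and at −1.76 in control mice. Both calls were kept when any 1 library was left out (adjusted p up to 0.0219 and 0.0283).

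The other calls in diabetic mice were less stable. Ndufb10 and Ndufc1, accessory subunits of complex I, differed by −15.4 and −11.8 (limma adjusted p = 0.0479 and 0.0368). Sdhc, a membrane anchor of complex II, differed by −13.2 (limma adjusted p = 0.0473). Ndufaf3, a complex I assembly factor, was the only member higher in BMDM, by 12.6 (limma adjusted p = 0.0427; 9.75 in control mice). Each lost its call in 6 to 9 of 11 cases of leaving out 1 library. The control and diabetic differences come from separate groups of libraries; over the 95 members they had the same sign for 67 (Pearson r 0.511, Spearman rho 0.431, a description across genes), and over all genes r was 0.815.

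**Figure D5:**
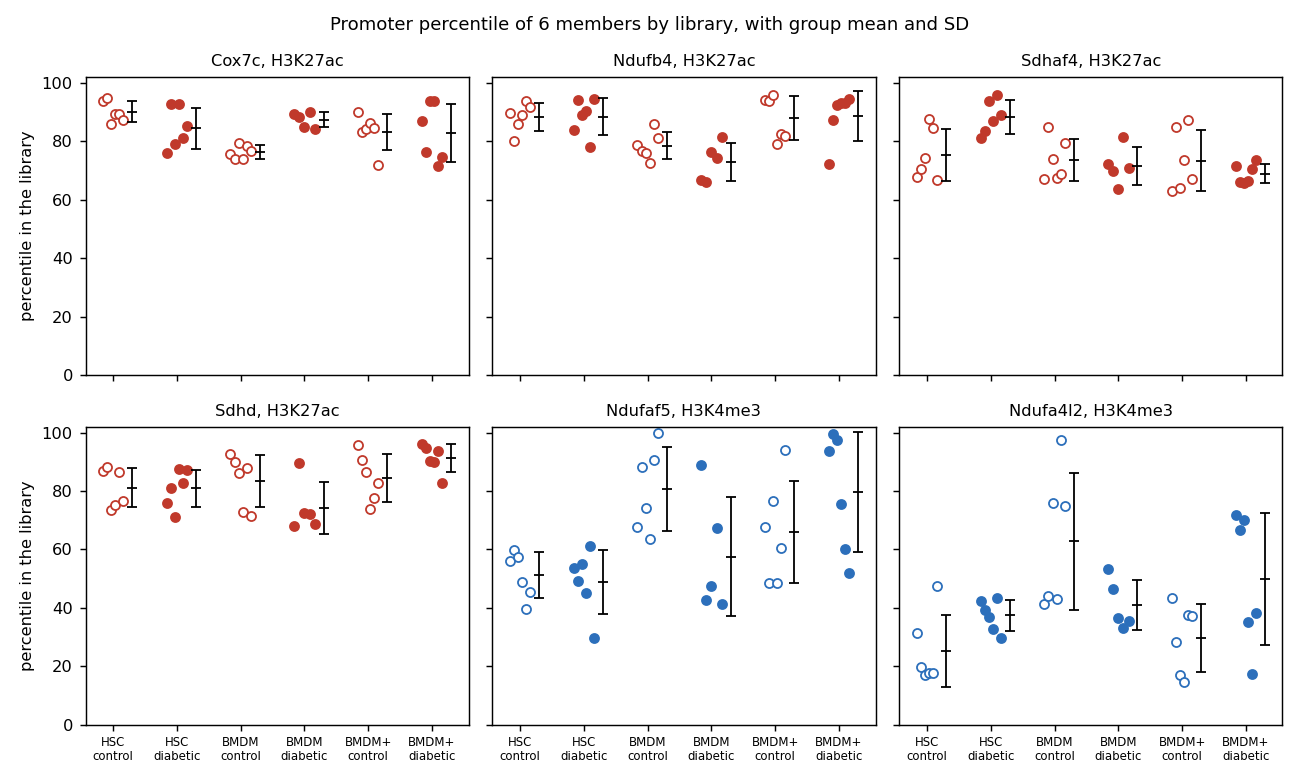
Percentile in each library (circles, filled for diabetic) with group mean and SD (bars) for 6 members; BMDM+ is LPS+IFN-γ, each panel is titled with its gene and mark. Cox7c shows control BMDM (73.9 to 79.6) below all control HSC (85.9 to 94.8), and Ndufa4l2 shows the wide spread of the H3K4me3 values.

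For H3K4me3 the direction was the other way and the lists were less even. In control mice 5 of 96 members were called, all higher in BMDM, against 6.25% of all genes (3.71% higher and 2.54% lower). The median difference was 7.49 over members and 1.15 over all genes. Ndufaf5, a complex I assembly factor that shares its window with Esf1, had a lowest, median and highest percentile of 39.5, 52.4 and 59.8 in HSC and of 63.5, 81.1 and 99.8 in BMDM. These ranges did not overlap, and the difference was 29.4 (limma adjusted p = 0.0298). Ndufa4l2 was at 25.1 ± 12.3 in HSC and 62.8 ± 23.4 in BMDM (37.7; limma adjusted p = 0.00470), but the difference was −1.70 with windows of 500 bp to either side, so the call used peaks more than 500 bp from its start sites. Its lowest, median and highest HSC values were 16.8, 18.6 and 47.6, and most of those libraries held no promoter peak for it. It entered the test through the BMDM libraries, where it is high, so its call is not independent of the filter. Sdhaf4 (33.9; limma adjusted p = 0.0236) was also called. Cox8c (15.9; limma adjusted p = 0.0313) had a promoter peak in 1 of 6 control HSC and 6 of 6 BMDM libraries and entered the test through the groups where it is high, so its call is not independent of the filter, and its difference was −0.584 when only the 10000 strongest peaks were used. Leaving out 1 library removed the call of Ndufaf5 in 5, Sdhaf4 in 6 and Cox8c in 6 of 12 cases. With the number of peaks of each list as a covariate, 0 of 96 members were called, 11 had an unadjusted p under 0.05, and the median difference over members was 0.137. Without the H3K4me3 libraries of unclear scaling or nearer to the other label (4 control BMDM libraries, although that mark hardly tells the labels apart), 0 were also called, with 10 at an unadjusted p under 0.05.

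In diabetic mice 0 of 96 members were called for H3K4me3 (limma; 15 at an unadjusted p under 0.05), against 0.898% of all genes (0.579% higher and 0.318% lower). The differences were 8.56 for Ndufaf5, 3.64 for Ndufa4l2, 5.73 for Sdhaf4 and 13.3 for Cox8c.

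The second comparison asked what LPS plus IFN-γ changed in BMDM. For 9 marker genes of stimulated macrophages the mean H3K27ac percentile was 35.9 in unstimulated and 42.2 in stimulated BMDM. The library ranges overlapped (29.0 to 48.3 and 35.4 to 51.4). Il1b (22.1 and 20.4) and Irf1 (85.0 and 84.3) were lower after stimulation. Cxcl9 was almost level (16.3 and 16.9), and the rest were higher. For H3K4me3 the means were 30.3 and 33.7. Calls were few, and with so small a shift at these markers they say little about the members. For H3K27ac in diabetic BMDM, 2 of 95 members were called, both higher after stimulation, against 3.44% of all genes (1.56% higher and 1.88% lower). The median difference (stimulated minus unstimulated) was 3.29 over members and −0.353 over all genes, and 61 of 95 members were positive. By complex the median was 4.24 for complex I, 7.102 for complex II, 3.91 for complex III, −0.917 for complex IV and 2.56 for ATP synthase.

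Sdhd, a membrane anchor of complex II, was at 68.0, 89.5, 72.6, 72.1 and 68.7 in the 5 unstimulated diabetic libraries and at 96.2, 94.7, 90.2, 89.96, 93.8 and 82.6 in the 6 stimulated ones. Only 1 unstimulated library, replicate 2, reached into the stimulated range. The difference was 17.1 (SE 4.39; limma adjusted p = 0.0218). Ndufb4 was at 66.8, 66.3, 76.2, 74.4 and 81.5 without and at 72.1, 87.4, 92.4, 93.1, 93.0 and 94.4 with stimulation. All but replicate 1 of the stimulated libraries lay above every unstimulated one, and the difference was 15.7 (SE 4.02; limma adjusted p = 0.0210). Each of the 2 calls was lost in 3 of 11 cases of leaving out 1 library, with adjusted p up to 0.0554 for Sdhd and 0.0612 for Ndufb4; the number of members called was 0 without unstimulated replicate 1, 1 without stimulated replicate 3 or unstimulated replicates 5 or 6, 4 without stimulated replicate 5, and 5 without stimulated replicate 6.

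In control BMDM 0 of 95 members and 0% of all genes were called for H3K27ac (limma; 6 members at an unadjusted p under 0.05). As a set the members leaned the same way as in diabetic BMDM. Their median difference was 1.65, against 0.0680 over all genes, and 61 of 95 were positive. By complex the median was 2.80 for complex I, 1.05 for II, 3.26 for III, 1.65 for IV and 0.427 for ATP synthase. Complex IV thus had the other sign than in diabetic BMDM. Member by member the control and diabetic responses were only weakly related (Pearson r 0.185, Spearman rho 0.176, against r 0.373 over all genes). They had the same sign for 57 of 95 members (60%), against 61.3% of all genes. Sdhd was at 83.5 ± 9.01 without and 84.6 ± 8.16 with stimulation (n = 6 each), and Ndufb4 at 78.5 ± 4.56 and 88.0 ± 7.57. The response of Sdhd differed between diabetic and control BMDM by 16.0 points (SE 6.07; limma adjusted p = 0.654), and that of Ndufb4 by 6.26, so neither difference in response passed the test. Without the 3 control libraries nearer to the other label, 0 members were again called. For H3K4me3, 0 of 96 members were called in control (5 at an unadjusted p under 0.05) or diabetic BMDM (8), and 0% of all genes (limma).

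The third comparison set diabetic against control mice within each cell state. In all 6 comparisons 0 members and 0% of all genes were called by limma. At an unadjusted p under 0.05 there were 2, 5 and 3 of 95 members for H3K27ac in HSC, unstimulated and stimulated BMDM, against 1.39%, 5.98% and 4.79% of all genes. For H3K4me3 there were 6, 9 and 7 of 96, against 4.41%, 3.64% and 5.16%. The median difference (diabetic minus control) over members was −0.227, 0.159 and 0.885 points for H3K27ac and −1.84, −2.17 and 2.26 for H3K4me3. The median standard error of a member's difference was 4.15 to 4.36 points for H3K27ac and 7.62 to 7.99 for H3K4me3, so that differences of a few points could not have been detected. The much larger differences of single members given next were not called either. The lack of calls thus does not show that differences of that size are absent.

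The members with the smallest unadjusted p were Sdhaf4 in HSC (88.4 ± 5.77 against 75.3 ± 8.78; 13.1 higher; limma adjusted p = 1.0), Cox7c in unstimulated BMDM (87.4 ± 2.65, n = 5, against 76.4 ± 2.32; 11.1 higher; limma adjusted p = 0.769) and Ndufaf5 in stimulated BMDM (69.3 ± 7.60 against 59.6 ± 1.79; 9.67 higher; limma adjusted p = 0.994) for H3K27ac. For H3K4me3, Ndufb3, an accessory subunit of complex I, was lower in unstimulated diabetic BMDM (64.8 ± 13.7 against 87.6 ± 6.37) and higher in stimulated ones (87.8 ± 6.87 against 66.6 ± 9.33). Its response to stimulation differed by 44.0 points (SE 10.2; limma adjusted p = 0.307). In the 4 tests of whether a stimulation or disease difference itself differed, 0 members and 0% of all genes were called by limma, with 3 to 8 members at an unadjusted p under 0.05.

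The median member percentile for H3K27ac was 77.8 ± 3.78 in control and 77.4 ± 2.39 in diabetic HSC, 75.3 ± 4.14 and 74.9 ± 3.18 (n = 5) in unstimulated BMDM, and 76.4 ± 4.17 and 77.0 ± 2.81 in stimulated BMDM (n = 6 otherwise). For H3K4me3 it was 61.5 ± 7.73 and 53.3 ± 13.1, 67.4 ± 4.68 and 65.7 ± 4.84, and 67.5 ± 5.93 and 68.9 ± 7.43. Each pair differed by less than 1 SD of the more variable group.

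A list of 53 other genes of the pathway (further assembly factors, regulators and ATP synthase modulators) had medians of 75.1 for H3K27ac and 67.6 for H3K4me3. Between unstimulated BMDM and HSC for H3K27ac, 1 of 51 tested was called in control mice, against 16.7% of all genes, namely Atpif1, the inhibitor of ATP synthase (59.98 ± 6.20 against 75.3 ± 12.1; limma adjusted p = 0.0149). In diabetic mice 5 of 51 were called, against 17.1% of all genes. Cmc2, Cox20 and Acad9, which take part in the assembly of complexes IV and I, differed by −14.8, −8.30 and −13.1, and the complex I assembly factor Nubpl was higher by 9.66 (limma adjusted p = 0.00630 to 0.0328). The coactivator Ppargc1b was higher by 14.6 (72.8 ± 8.59 against 58.2 ± 7.43; limma adjusted p = 0.0254). For H3K4me3, 1 of 52 was called in each, against 6.25% and 0.898% of all genes, Gabpb1 in control (−22.2) and Yy1 in diabetic mice (−23.3; limma adjusted p = 0.0413 and 0.0415), and both encode factors or partners of factors whose motifs were searched. In the other comparisons 0 were called (limma; 0 to 9 at an unadjusted p under 0.05).

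Regulators differed widely in promoter rank. For H3K27ac, group means ran from 96.3 to 98.9 for Nrf1, from 89.7 to 95.9 for Gabpa, from 79.4 to 84.5 for Tfam, which packages and transcribes mitochondrial DNA, and from 62.2 to 69.1 for Esrra. Ppargc1a, the coactivator best known from brown fat and muscle, had too few promoter peaks to be tested. AA467197, the mouse counterpart of the gene for the NDUFA4-like protein NMES1, had H3K27ac means of 40.1 and 41.0 in control and diabetic HSC, 52.8 and 44.1 in unstimulated BMDM, and 60.7 and 57.0 in stimulated BMDM, with 0 calls among the stimulation comparisons.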

How the data were processed

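Chromatin immunoprecipitation sequencing of H3K27ac and H3K4me3 gave 70 lists of peaks, 1 per library and called against input, and 36 input samples were not analysed here (106 samples in all). The submitters' processing notes name MACS2 2.2.7.1, Bowtie2 2.2.6, Trim Galore 0.3.3, cutadapt 1.8, FastQC 0.11.3, Picard 2.18.14 and 2.19.2 and bedtools 2.19.1, and GRCm38, with no role or order. In the deposited lists each peak has a ratio, the fold enrichment over local background at the summit, and a −log10 p and −log10 q, all made by the authors' peak caller within 1 library. Replicates were not pooled, and lists stop near a q of 0.05. Depth as reads is unknown, so the number of peaks describes each list. Summits that share an interval were joined into 1 peak, and 9511856 summits gave 7828714 peaks.

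Promoters were 1000 bp to either side of 93513 start sites of 21938 protein-coding genes (GENCODE M21, GRCm38) on 21 chromosomes. The best −log10 p per gene was turned into a within-library percentile and tested in limma 3.58.1 (R 4.3.3; trend and robust) with the 35 libraries of a mark in 1 fit and no replicate block, since the study's methods describe no test for the ChIP-seq lists and its test of ATAC-seq regions uses reads. There were 18 comparisons: 6 by disease, 4 by stimulation, 4 by cell state and 4 interactions. A call is an adjusted p under 0.05. Scripts were tested on simulated data. Alternatives were ranking on fold enrichment, the top 10000 peaks, a −log10 q of at least 2, windows of 500 bp, summits inside the window, no gene filter, normal scores, Fisher's exact test, the block, the number of peaks as covariate, and leaving out doubtful libraries and single libraries. Other tools were Python 3.11.15, numpy 2.4.6, pandas 2.3.3, scipy 1.17.1 and matplotlib 3.10.9. Promoter windows are RefSeq's. Named genes were all called members (up to 10 a comparison), the 5 highest and 10 lowest medians per mark, core subunits, restricted isoforms with their partners, members without a promoter peak in most libraries, and called or regulatory pathway genes. Genes named for their unadjusted p, their lean between marks or their shared window were chosen after their values were seen. The values of 1 member are not reported here, although it stays in the counts. The members and lists were chosen with earlier results of these data known.

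Replicate numbers were not taken to pair the samples, since the labels do not tie them to animals and not every pair correlated above 0.1. Over 85 pairs of same-numbered libraries per mark, the correlation of their deviations ran from −0.318 to 0.381 for H3K27ac and from −0.302 to 0.368 for H3K4me3. These pairs include control with diabetic libraries, which come from separate mice. Each of the 5 pairs of stimulated and unstimulated diabetic BMDM was above the mean with other numbers for both marks. For H3K27ac these were 0.0286 to 0.381 against −0.0754 to −0.00739. In control BMDM, replicate 5 was below that mean for H3K27ac and replicate 2 for H3K4me3. Whether a number marks the same animal is not known.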

Additional observations from a re-analysis of the deposited data

Results flagged for a closer look

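In groups of 5 or 6 libraries, a highest or lowest value was singled out where its gap to the nearest other library exceeded Dixon's 95% critical share of the range. This was so in 7 of 58 groups examined, and chance gives about 1 in 20. In the H3K27ac lists of unstimulated control BMDM, the members' median percentile was 67.0 in replicate 4 and 75.4 to 78.0 in the other 5. In the H3K4me3 lists of control HSC it was 77.0 in replicate 1 and 57.3 to 61.0 in the others. In those of diabetic HSC, replicate 5 held 64 members among its 10000 strongest peaks and the others 39 to 46. For H3K27ac, Sdhd in unstimulated diabetic BMDM was at percentile 89.5 in replicate 2 and 68.0 to 72.6 in the others, and Sdhc in the same group was at 61.3 in replicate 6 and 75.8 to 80.6 in the others. Ndufb4 in stimulated diabetic BMDM was at 72.1 in replicate 1 and 87.4 to 94.4 in the others. For H3K4me3, Cox8c in control HSC was at 35.05 in replicate 3 and 14.0 to 19.6 in the others.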

How the results depend on the processing

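Of 18 comparisons, 14 had 0 members called, and 13 of these stayed at 0 under every alternative and every library left out. The exception was H3K4me3 in BMDM against HSC of diabetic mice, with 0 to 3 called when 1 library was left out (3 without diabetic HSC replicate 5, 1 without BMDM replicate 6). The other 4 counts moved as follows; where no value shows why, the cause was not tested. For H3K27ac, BMDM against HSC in control mice gave 4 calls as reported, 1 ranked on fold enrichment, 2 on normal scores, 1 by Fisher's exact test (8 members could be tested) and 2 to 5 when 1 library was left out (2 without unstimulated replicates 1 or 2 or HSC replicate 1). The same in diabetic mice gave 6, then 3 on fold enrichment, 2 from the 10000 strongest peaks only, 3 without the gene filter, 3 on normal scores and 3 to 5 when 1 library was left out (3 without HSC replicate 3). Stimulation of diabetic BMDM gave 2, then 1 on fold enrichment, 0 from the 10000 strongest peaks, 0 by Fisher's exact test and 0 to 5 when 1 library was left out. For H3K4me3, BMDM against HSC in control mice gave 5, then 1 on fold enrichment, 1 from the 10000 strongest peaks, 0 by Fisher's exact test, 0 with the number of peaks as covariate, 0 without the doubtful libraries, 1 without the 4 libraries of unclear scaling (chosen after seeing the data) and 1 to 8 when 1 library was left out (8 without HSC replicate 1, 3 without HSC replicates 3 or 5 or BMDM replicate 1, 2 without HSC replicates 2 or 6 or BMDM replicates 5 or 6, 1 without BMDM replicate 2). In that comparison 2 genes reversed: Cox8c was at −0.584 from the 10000 strongest peaks and Ndufa4l2 at −1.70 with windows of 500 bp. With the replicate block, whose numbers were not taken to pair the samples, the 4 counts were 4, 6, 3 and 5. That block gave each number the same effect in control and diabetic mice, so it did not model pairing within a disease group. In the comparison of stimulated with unstimulated diabetic BMDM, where the count went from 2 to 3, the 5 same-numbered pairs correlated at 0.0286 to 0.381 for H3K27ac, and 2 of the 5 were best with their own number, a hint from the data and not the design. Libraries correlated best with their own number in 13 of 85 pairs for H3K27ac and 20 of 85 for H3K4me3. The members' median percentiles of 77.1 and 65.5 were 80.3 and 62.3 ranked on fold enrichment. Peak lists limit these results: a gene below the list's threshold has no value, and list length differed between groups for H3K4me3.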
